A study of Mus musculus with 16 samples.

Results

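Cytoplasmic ribosomal protein genes encode the proteins of the small (Rps) and large (Rpl) subunits of the ribosome that translates nuclear messages. They were taken by name: symbols of the form Rps or Rpl followed by a number and, where present, a paralog letter, together with Rpsa, Rplp0, Rplp1 and Rplp2, leaving out pseudogenes with -ps names and the Rps6k kinases. Of the 27179 genes in the files, 87 carried such a name and 84 had at least 10 counts in 4 or more libraries. These 84 genes, 33 of the small and 51 of the large subunit, are described here. The 3 that missed the minimum were Rpl10l (3 counts over all libraries), Rpl39l (2 counts) and Rpl3l (22 counts). The name rule also took Rpl6l and Rps4l, which RefSeq lists as a pseudogene and a transcribed pseudogene, and it did not take the ribosomal proteins Fau and Rack1.

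The RNA came from neurosphere cultures of mouse neural stem and progenitor cells, prepared from E14.5 foetal cortex together with the ganglionic eminences. Null cells were Kat7lox/lox NesCreT/+ and intact cells were Kat7+/+ NesCreT/+, so both genotypes carried the Cre transgene driven by Nestin sequences and differed in the floxed alleles of Kat7, the gene of the histone lysine acetyltransferase KAT7 (HBO1). Each genotype was sampled while proliferating (3 passages and 3 days) and, separately, after passage 3 followed by a differentiation period of 3 days, for which cells sat on laminin with cortical neuron medium. Each of the 4 groups held 4 libraries of polyadenylated RNA, numbered as replicates 1 to 4, and the design gives isolates of 4 foetuses per genotype and condition.

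Ribosomal proteins are made in near-equal numbers, and their genes are among the most actively transcribed in dividing cells. Their messages typically begin with a C followed by a run of pyrimidines, the terminal oligopyrimidine (TOP) tract, through which mTOR signalling and the protein LARP1 regulate their translation. Several have paralogs: Rpl22l1 and Rpl22, for example, encode alternative forms of the same large-subunit protein, and Rps27l is a paralog of Rps27 that is known to be induced by p53. Rpl5 and Rpl11 form a particle with the ribosomal RNA called 5S and, when ribosome assembly fails, bind the p53 inhibitor MDM2.

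The pyrimidine tract is a shared feature that the name rule did not use, so it is shown first for 6 members and for the paralogs Rpl22l1 and Rps27l. Each line gives 36 bases before to 24 bases after the annotated start, 5′ to 3′ on the gene's own strand, from RefSeq on GRCm38.p6. Capitals mark a run of C and T letters near the start, the longest there, or in Rps27l the first of equal length.
Rps6 (chr4:86857344-86857403, minus strand): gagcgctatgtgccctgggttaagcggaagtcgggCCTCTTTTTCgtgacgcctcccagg
Rps18 (chr17:33955642-33955701, minus strand): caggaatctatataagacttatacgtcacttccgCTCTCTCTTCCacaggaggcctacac
Rpl28 (chr7:4792929-4792988, plus strand): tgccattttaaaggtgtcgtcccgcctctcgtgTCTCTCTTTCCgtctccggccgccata
Rps10 (chr17:27635221-27635280, minus strand): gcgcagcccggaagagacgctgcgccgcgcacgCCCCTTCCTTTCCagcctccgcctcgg
Rpl35 (chr2:39005108-39005167, minus strand): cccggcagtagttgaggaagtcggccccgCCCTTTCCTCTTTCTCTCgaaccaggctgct
Rpl38 (chr11:114668544-114668603, plus strand): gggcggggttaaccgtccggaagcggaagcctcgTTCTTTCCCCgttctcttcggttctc
Rpl22l1 (chr3:28805472-28805531, plus strand): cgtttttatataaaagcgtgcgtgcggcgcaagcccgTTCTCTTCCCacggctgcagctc
Rps27l (chr9:66946050-66946109, plus strand, 1 of 2 listed starts): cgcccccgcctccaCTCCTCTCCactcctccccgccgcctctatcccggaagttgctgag
In the first 6 the tract began 1 to 7 bases before the annotated start and ran for 10 to 18 letters. In Rpl22l1 it began at base 2 of the transcript, and in Rps27l the marked run began 22 bases before this start, with a run of equal length after it.

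A window of 250 bases before to 50 after the start was listed for 62 of the 84 members and for 11316 of the 15177 genes tested. A run of at least 8 C or T letters on the sense strand, overlapping the 20 bases before to 30 bases after the start, was present in 43 of the 62 members (69.4%), in 26.1% of the genes tested and in 26.4% of all 27025 genes with a window. CCGGAAG, the core recognised by ETS factors, was searched on both strands of the whole window and found in 25 members (40.3%), against 18.7% of the genes tested. AAGATGGC, a core of YY1 sites, was found on either strand in 6 members (9.68%), against 4.90% of the genes tested. TATAAA on the sense strand within 50 bases before the start was found in 1 member, Rpl22l1, which is 1.61% of members against 1.72% of the genes tested. The ratios of Rpl22l1, Rps27l and Rpl7l1 to their usual genes were lower after differentiation, and Rpl7l1 had neither a TATAAA nor a CCGGAAG match. A link of these matches to the ratios was not tested. The stretch of Rpl22l1 is shown again with TATAAA in capitals, and that of Rps27l with CCGGAAG in capitals.
Rpl22l1: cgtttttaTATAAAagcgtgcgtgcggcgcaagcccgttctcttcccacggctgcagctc
Rps27l: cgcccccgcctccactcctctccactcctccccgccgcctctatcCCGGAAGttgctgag
These matches describe letters in an annotated window, and the annotated start may not be the start used in these cells.

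Library totals were 16784286 to 47890535 counts, with 16322 to 18774 genes detected, and the counts of the 84 members summed to 212424 to 466577 per library. Kat7 had 2643 to 3748 counts in each intact library and 0 to 4 counts in each null library, so the targeted gene went with the labels. Replicate 1 of the intact cells had the lowest share of ribosomal protein counts of its group in both conditions, by a gap that did not pass Dixon's test in either. Leaving out the lowest library raises the intact mean share, so null cells then lie further below intact ones by construction. Several results are given with and without it, though not those of every gene.

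The ribosomal protein genes took a larger share of all counts in proliferating than in differentiating cells, and a smaller share in null than in intact proliferating cells. In intact proliferating libraries the share was 1.46%, 1.68%, 1.62% and 1.85% in replicates 1 to 4 (mean 1.65% ± 0.160, SD, n = 4). Null proliferating libraries gave 1.42%, 1.27%, 1.33% and 1.26% (1.32% ± 0.0740, SD, n = 4). These groups did not overlap, but the lowest intact library and the highest null library were close. In intact differentiating libraries the share was 0.870%, 1.12%, 1.11% and 1.08% (1.04% ± 0.118, SD, n = 4). Null differentiating libraries gave 0.962%, 0.945%, 0.880% and 0.917% (0.926% ± 0.0358, SD, n = 4), and overlapped with the intact ones only through intact replicate 1.

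The mean share was 36.7% lower after differentiation in intact and 29.7% lower in null cells, and in neither genotype did the conditions overlap. Null cells were 20.2% lower than intact cells while proliferating and 11.4% lower while differentiating. As a log2 ratio of group means the difference was -0.33 while proliferating and -0.17 while differentiating. With library totals scaled by TMM (a factor that evens out composition) the same ratios were -0.25 and -0.083. Without intact replicate 1 the unscaled ratios were -0.38 and -0.25, a widening that follows from leaving out the lowest library. Over all single libraries left out they ran from -0.38 to -0.27 while proliferating and from -0.25 to -0.14 while differentiating. No test was made on the share, because it is a score over chosen genes. The 95% Wilson interval of a library's share is narrow, for example 1.25% to 1.26% in replicate 4 of the null proliferating group, and covers counting error only. Both subunits followed the same pattern, with drops on differentiation in intact cells of 37.3% for the small and 36.2% for the large subunit.

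**Figure D1:**
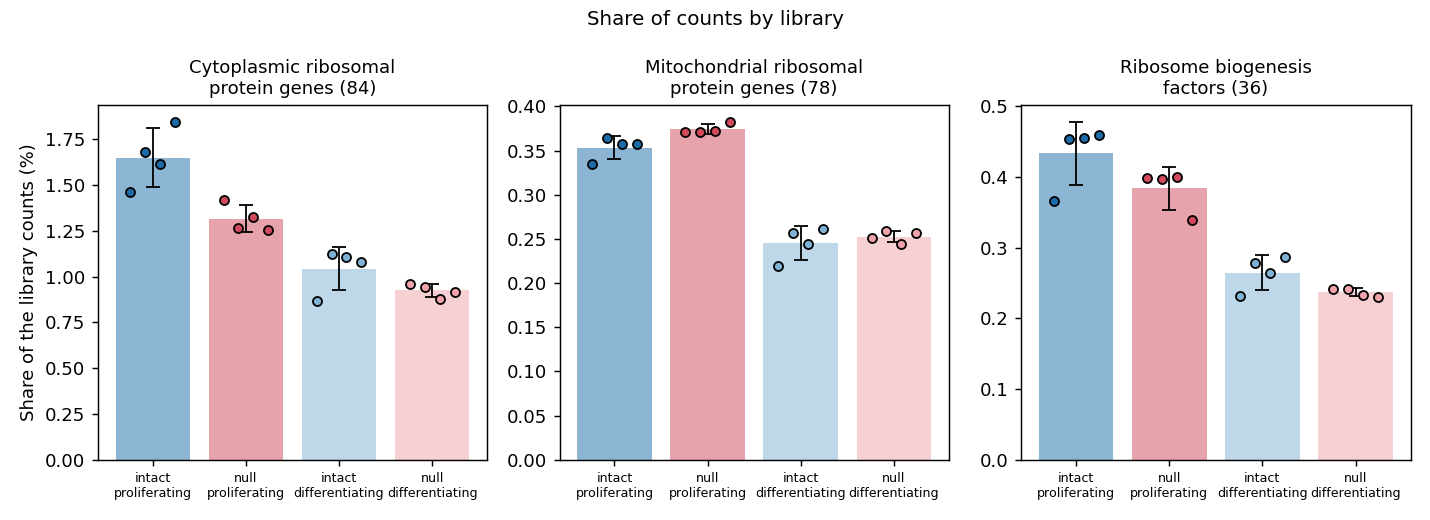
Share of each library's counts (%, vertical axis) taken by the 84 cytoplasmic ribosomal protein genes, 78 mitochondrial ribosomal protein genes and 36 ribosome biogenesis factors, by group. Points are libraries in replicate order, bars are means of 4 libraries and error bars are SD. The mean cytoplasmic share was 1.65% in proliferating and 1.04% in differentiating intact cells, and 1.32% and 0.926% in null cells.

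A few genes held much of the share. Rpl4, Rplp0, Rpl8, Rps3 and Rps9 were the 5 members with most counts in every group and took 27.9% to 28.7% of the members' counts. Rpl4 alone, a large-subunit protein that reaches into the peptide exit tunnel, took 7.15% to 7.76%. The 34 pseudogenes with -ps names, which are no members, took a further 0.136% ± 0.0142 of counts in intact proliferating libraries (SD, n = 4) and 0.103% ± 0.00644 in null ones.

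The first comparison asked how the genes respond when intact cells differentiate. Here 81 of the 84 members fell and 0 rose (edgeR's quasi-likelihood test with Benjamini-Hochberg adjustment over 15177 genes, adjusted p under 0.05), beside 35.3% of all genes tested that fell and 36.7% that rose. At an unadjusted p under 0.05, 81 fell and 0 rose, and DESeq2 also called 81 lower and 0 higher. The groups did not overlap for 78 members, beside 31.8% of all genes that were lower without overlap. The median log2 fold change of the members was -0.80, against 0.02 over all genes tested. Because this is bulk RNA, fewer cells of a type and less of the message per cell cannot be told apart.

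Rps27l, the p53-induced paralog of the small-subunit protein Rps27, had the lowest fold change (gene 67941, chromosome 9, 66944624 to 66949522). Its level, as TMM-scaled CPM (counts of a gene divided by those of the library, on a common scale), was 119, 177, 170 and 198 in intact proliferating replicates 1 to 4 and 29.7, 45.0, 38.6 and 47.2 in intact differentiating ones. Every differentiating library was below every proliferating library, and the log2 fold change was -2.05 (SE 0.15, edgeR adjusted p = 1.6e-08). Rpl12, a protein at the base of the ribosomal stalk, followed at -1.205 (SE 0.10, edgeR adjusted p = 7.9e-08).

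Among small-subunit genes, Rps13 changed by -1.19 (SE 0.20), Rps25 by -1.15 (SE 0.08), Rpsa by -1.10 (SE 0.13) and Rps23 by -1.10 (SE 0.16) on the log2 scale, all called lower. Rpsa, also known as the laminin receptor precursor, went from 331, 403, 365 and 511 CPM in proliferating to 177, 202, 204 and 169 CPM in differentiating intact libraries. No library of the differentiating group reached the proliferating range. Rps6, whose phosphorylation is a common readout of mTOR signalling, changed by -0.74 (SE 0.13, edgeR adjusted p = 0.00015), near the median of the members.

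Among large-subunit genes, Rpl36a changed by -1.18 (SE 0.18), Rpl17 by -1.05 (SE 0.13) and Rpl22l1 by -1.03 (SE 0.13) on the log2 scale, and all were called lower. The 3 proteins of the stalk, which recruits translation factors, were all called lower: Rplp0 at -0.71, Rplp1 at -0.73 and Rplp2 at -0.88. Of the 8 proteins around the exit of the peptide tunnel, 8 were lower, with a median of -0.79. The partners Rpl5 and Rpl11 both fell, Rpl11 by 1.02 (SE 0.14) and Rpl5 by 0.39 (SE 0.11) on the log2 scale.

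The 3 members not called were Rpl15, Rps15a and the pseudogene Rps4l. Rpl15, a protein of the large subunit core, had 121, 158, 154 and 163 CPM in proliferating and 154, 134, 127 and 120 CPM in differentiating intact libraries, and the groups overlapped (log2 fold change -0.15, SE 0.09, edgeR adjusted p = 0.13). Rps15a had 123, 144, 137 and 172 CPM in proliferating and 152, 135, 132 and 119 CPM in differentiating libraries (log2 fold change -0.10, SE 0.10, edgeR adjusted p = 0.37). In both, intact replicate 1 had the lowest proliferating and the highest differentiating value. Against a minimum change of 1.5-fold, 48 members were called lower, beside 17.1% of all genes.

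In null cells the same step lowered 75 of 84 members and raised 0, beside 34.4% of all genes that fell and 34.6% that rose. At an unadjusted p under 0.05, 77 fell and 0 rose, and DESeq2 called 75 lower and 0 higher. The groups did not overlap for 70 members, beside 33.2% of all genes lower without overlap, and the median log2 fold change was -0.52, against 0.02 over all genes tested. Against a minimum change of 1.5-fold, 12 members were called lower, beside 16.5% of all genes.

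Rps27l again had the lowest fold change, from 187, 175, 190 and 180 CPM in null proliferating to 55.5, 57.4, 48.7 and 53.5 CPM in null differentiating libraries. The groups were far apart (log2 fold change -1.77, SE 0.15, edgeR adjusted p = 6.9e-08). Rpl36al, a paralog of Rpl36a, changed by -1.18 (SE 0.11, edgeR adjusted p = 3e-07) and Rpsa by -1.15 (SE 0.13, edgeR adjusted p = 1.4e-06). The 3 stalk proteins and 7 of the 8 exit tunnel proteins were lower. The 9 members not called were Rpl5, Rpl15, Rpl22, Rpl24, Rpl35a, Rpl37, Rps26, Rps27 and Rps28, with log2 fold changes from -0.44 for Rpl37 to -0.03 for Rpl22. Across the 84 genes, the fold changes in intact and null cells, which come from different libraries, had a Pearson r of 0.739 and a Spearman rho of 0.643. Genes of 1 pathway are not independent points, so no p is given.

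The second question was how loss of Kat7 changed these genes. Among proliferating cells, 30 of 84 members were lower with Kat7 deleted and 0 were higher, beside 19.7% lower and 19.0% higher of all genes tested. At an unadjusted p under 0.05, 42 were lower and 0 higher, and DESeq2 called 31 lower and 0 higher. The median log2 fold change was -0.25, against -0.01 over all genes, and 81 of the 84 values were below 0. The groups did not overlap for 14 members, beside 19.7% of all genes lower without overlap. Of the called members, 15 belonged to the 33 of the small and 15 to the 51 of the large subunit. Against a minimum change of 1.5-fold, 0 members were called, 1 member passed an unadjusted p of 0.05, and 6.71% of all genes were called lower. The count of 30 rose to 50 without intact proliferating replicate 1 and to 57 without intact replicate 1 of both conditions, and was 18 without intact proliferating replicate 4.

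The lowest value was that of Rps4l, the transcribed pseudogene on chromosome 6, at 148354656 to 148355596. It had 11.48, 7.85, 6.54 and 5.72 CPM in intact and 3.42, 1.97, 4.08 and 3.86 CPM in null proliferating libraries. The null range lay below the intact range (log2 fold change -1.23, SE 0.34, edgeR adjusted p = 0.01).

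Rpl31, a protein at the exit of the peptide tunnel, came next (gene 114641, chromosome 1, 39367851 to 39371911). Its level was 23.99, 26.7, 29.7 and 34.7 CPM in intact and 18.6, 14.8, 16.4 and 21.4 CPM in null proliferating libraries, without overlap (log2 fold change -0.69, SE 0.15, edgeR adjusted p = 0.0025). Rpl5 had 114, 145, 136 and 180 CPM in intact and 102, 92.1, 90.7 and 110 CPM in null proliferating libraries, again without overlap (log2 fold change -0.54, SE 0.11, edgeR adjusted p = 0.0014). Its partner Rpl11 had 23.5 to 34.0 CPM in intact and 20.1 to 30.8 CPM in null libraries and was not called (log2 fold change -0.20, SE 0.14, edgeR adjusted p = 0.26).

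Rpl13a, which also takes part in a complex that silences inflammatory messages, had 547, 670, 632 and 728 CPM in intact and 518, 436, 438 and 431 CPM in null proliferating libraries. The highest null library was just under the lowest intact one (log2 fold change -0.50, SE 0.11, edgeR adjusted p = 0.0019). Rpl22 had 278, 319, 309 and 344 CPM in intact and 274, 232, 239 and 227 CPM in null proliferating libraries (log2 fold change -0.36, SE 0.07, edgeR adjusted p = 0.0011), and its groups nearly touched in the same way. Among small-subunit genes, Rps12 changed by -0.46 (SE 0.12), Rps18 by -0.44 (SE 0.11) and Rps4x by -0.41 (SE 0.10), all called lower. Of the stalk proteins only Rplp0 was called, at -0.28 (SE 0.08, edgeR adjusted p = 0.015), with groups that overlapped. Of the exit tunnel proteins, Rpl17, Rpl22 and Rpl31 were lower. The highest values were those of Rps27l (0.14, SE 0.14), Rpl36al (0.09, SE 0.11) and Rpl9 (0.09, SE 0.12), none of them called.

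Among differentiating cells, 4 members were higher and 6 lower with Kat7 deleted, beside 24.3% higher and 22.0% lower of all genes tested. The median was -0.04, against 0.04 over all genes. Without overlap, 7 members were lower and 6 higher, beside 20.4% and 24.9% of all genes. The split depended on the scaling: DESeq2's size factors in edgeR gave 2 higher and 11 lower, the DESeq2 Wald test also gave 2 higher and 11 lower, and scaling by library size alone gave 0 higher and 15 lower. Leaving out single libraries gave between 3 and 15 called members. The count was 4 without intact differentiating replicate 3, 5 without intact differentiating replicate 4, 5 without null differentiating replicate 1 and 3 without null differentiating replicate 4. Without intact replicate 1 of both conditions it was 22, of which 21 were lower, and 7 of the 10 main calls were kept. Without intact differentiating replicate 1 alone it was 13, and 6 of the 10 main calls were kept. The calls lost in these fits are not listed by gene.

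The members called higher were Rps13, Rpl23a, Rps27l and Rpl30, and none of Rps13, Rpl23a, Rps27l and Rpl30 was called with scaling by library size alone. Rpl23a and Rpl30 were also not called with DESeq2's size factors in edgeR. Rps27l had 29.7, 45.0, 38.6 and 47.2 CPM in intact and 55.5, 57.4, 48.7 and 53.5 CPM in null differentiating libraries. The null libraries were higher by a small margin (log2 fold change 0.42, SE 0.15, edgeR adjusted p = 0.027), and the calls of Rps27l and Rpl30 were lost in a fit of the 8 differentiating libraries alone. Rps13 had 3.32, 3.83, 3.92 and 3.18 CPM in intact and 5.89, 5.12, 4.68 and 5.13 CPM in null differentiating libraries (log2 fold change 0.55, SE 0.19, edgeR adjusted p = 0.031). Rpl23a, a docking site at the tunnel exit, had a log2 fold change of 0.44 (SE 0.16) and Rpl30 of 0.39 (SE 0.14).

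The members called lower were Rps4l, Rps12, Rps15a, Rpsa, Rps20 and Rplp0. Rps4l had 5.21, 3.69, 8.35 and 4.02 CPM in intact and 2.41, 0.980, 1.28 and 2.29 CPM in null differentiating libraries, without overlap (log2 fold change -1.61, SE 0.35, edgeR adjusted p = 0.0015). It was the 1 member called against a minimum change of 1.5-fold, beside 11.1% of all genes called lower in that test. Rps15a had 152, 135, 132 and 119 CPM in intact and 106, 103, 99.5 and 109 CPM in null differentiating libraries, also without overlap (log2 fold change -0.37, SE 0.10, edgeR adjusted p = 0.0056). Rplp0, often used as a reference gene in quantitative PCR, had 499, 588, 604 and 591 CPM in intact and 476, 508, 487 and 476 CPM in null differentiating libraries. Its groups overlapped through intact replicate 1 (log2 fold change -0.23, SE 0.08, edgeR adjusted p = 0.033).

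**Figure D2:**
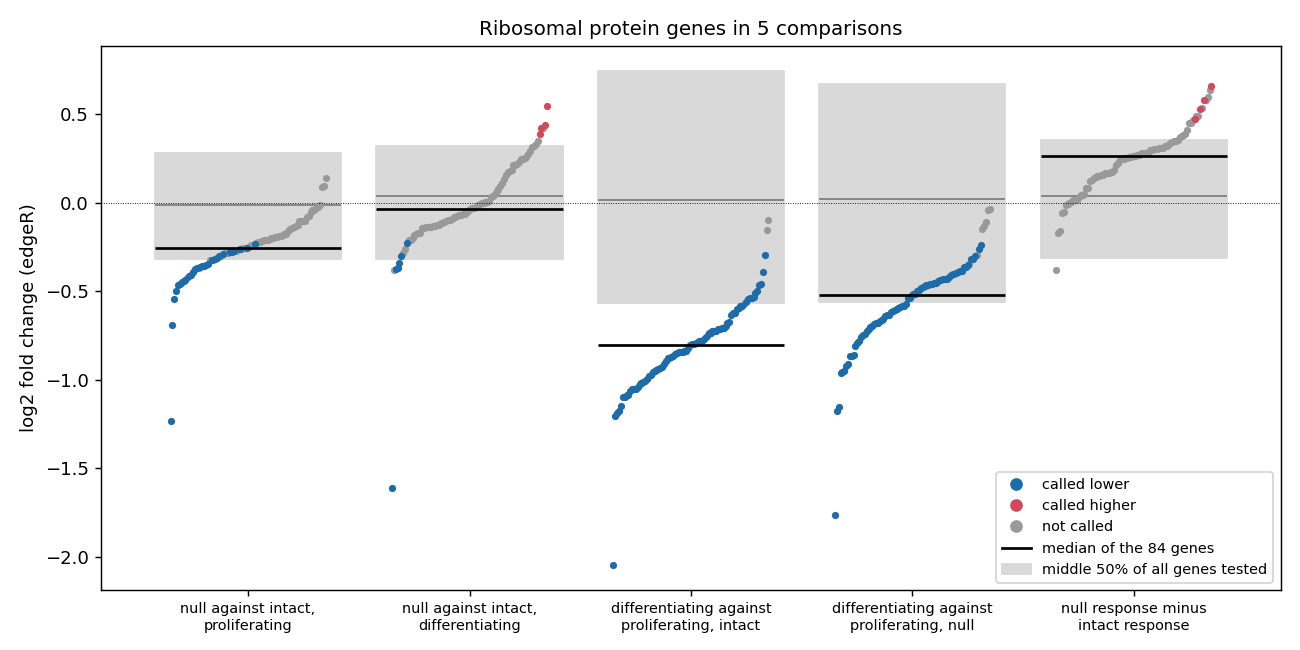
Log2 fold changes of the 84 members in the comparisons of genotype and of condition, 1 point per member, and of the interaction, with called members coloured, the median as a line and the middle 50% of all genes tested as a grey box. The differentiation responses lie below 0 for all 84 members in both genotypes, with medians of -0.80 in intact and -0.52 in null cells, while the genotype differences lie nearer to 0.

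Whether the response to differentiation itself differed was tested as an interaction, the response in null cells minus that in intact cells. It was positive, that is a smaller fall in null cells, for 77 of the 84 members (7 values were below 0), with a median of 0.26 against 0.04 over all genes. Of the members, 4 were called higher and 0 lower, beside 12.7% higher and 9.93% lower of all genes, and at an unadjusted p under 0.05, 15 were higher and 0 lower. DESeq2 called 4 higher and 0 lower. Against a minimum change of 1.5-fold 0 were called, also at an unadjusted p under 0.05, beside 2.37% of all genes called higher and 2.68% called lower in that test. The 4 were Rps23 (0.66, SE 0.22, edgeR adjusted p = 0.044), Rpl30 (0.58, SE 0.19, edgeR adjusted p = 0.044), Rpl17 (0.53, SE 0.18, edgeR adjusted p = 0.042) and Rps27a (0.48, SE 0.15, edgeR adjusted p = 0.037).

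Rps23, which sits near the decoding centre, had 38.7, 46.5, 45.4 and 58.4 CPM in intact proliferating and 17.9, 27.2, 23.0 and 20.3 CPM in intact differentiating libraries. In null cells it had 37.8, 30.8, 30.2 and 43.0 CPM while proliferating and 29.7, 24.3, 22.5 and 28.2 CPM while differentiating. The conditions were apart in both genotypes, with a wider gap in intact cells. Rps27a, which is made as a fusion of ubiquitin and a small-subunit protein, went from 25.2, 30.5, 30.5 and 32.3 CPM to 14.2, 17.1, 14.3 and 16.3 CPM in intact cells. In null cells it went from 25.05, 23.4, 23.0 and 25.3 CPM to 21.2, 17.2, 15.3 and 16.7 CPM. The 4 calls sat close to the threshold, and 0 were left with DESeq2's size factors in edgeR (9 members at an unadjusted p under 0.05). Leaving out single libraries gave from 0 to 16 calls, with 16 without intact proliferating replicate 1, 12 without null proliferating replicate 4, 2 without null proliferating replicate 1 or intact differentiating replicate 3, 1 without intact proliferating replicate 3, intact differentiating replicate 4 or null differentiating replicate 4, and 0 without any 1 of intact proliferating replicate 2 or 4, null proliferating replicate 2 or 3, null differentiating replicate 1 or 2 or intact differentiating replicate 1.

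Paralogs were compared with their usual gene as the log2 ratio of the counts of both in the same library, with 0.5 added to each count. Such a ratio does not depend on library scaling, and gene length cancels between groups but not between genes. The differences between groups were tested with a two-sided exact permutation test of 4 against 4 libraries, over 5 pairs and 4 comparisons, 20 tests in all. The smallest p that this design allows is 0.0286, and the 7 tests that reached it had a Benjamini-Hochberg adjusted p of 0.0816, so that none passed 0.05 after adjustment.

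The ratio of Rpl22l1 to Rpl22 was lower in every differentiating than in every proliferating library of its genotype. Rpl22l1 (gene 68028, chromosome 3, 28805508 to 28807424) had 49.2, 57.8, 55.1 and 69.9 CPM in intact proliferating, 48.6, 43.8, 50.5 and 47.6 CPM in null proliferating, 21.6, 34.2, 29.2 and 28.9 CPM in intact differentiating and 27.5, 28.8, 23.5 and 24.6 CPM in null differentiating libraries. All 8 differentiating libraries were below all 8 proliferating ones, and the genotypes overlapped in both conditions. Rpl22 (gene 19934, chromosome 4, 152324436 to 152334082) had 246, 268, 257 and 246 CPM in intact differentiating and 239, 244, 236 and 232 CPM in null differentiating libraries, close to its null proliferating values. The share of Rpl22l1 in the counts of the pair was 15.6% ± 0.876 in intact proliferating, 16.4% ± 1.17 in null proliferating, 10.03% ± 1.40 in intact differentiating and 9.89% ± 0.698 in null differentiating cells (SD, n = 4 each). The log2 ratio differed by -0.74 in intact and by -0.84 in null cells, without overlap (exact permutation p = 0.0286 for each, adjusted p = 0.0816). Between the genotypes the log2 ratio differed by 0.09 while proliferating (exact permutation p = 0.257) and by -0.01 while differentiating (exact permutation p = 0.971).

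Per kilobase of gene model the paralog and the usual gene were nearer to each other. Rpl22l1 had 122 ± 18.3 and Rpl22 153 ± 13.4 CPM per kilobase in intact proliferating cells, and 59.7 ± 10.9 and 125 ± 5.08 in intact differentiating cells (SD, n = 4).

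For Rps27l over Rps27 the order was the same. The log2 ratio of the pair was 3.57, 4.10, 3.98 and 4.18 in intact proliferating and 2.35, 2.56, 2.15 and 2.77 in intact differentiating libraries, a difference of -1.50 without overlap (exact permutation p = 0.0286, adjusted p = 0.0816). In null cells it was 4.42, 4.64, 4.44 and 3.95 while proliferating and 2.21, 2.76, 2.87 and 2.74 while differentiating, a difference of -1.72 (exact permutation p = 0.0286, adjusted p = 0.0816). Per kilobase, Rps27l had 358 ± 71.9 and Rps27 18.3 ± 0.693 CPM in intact proliferating cells (SD, n = 4).

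The levels of several of these genes are uncertain because of shared sequence. Of the stretches of 75 bases in the longest annotated transcript, 39.3% of Rps27 and 95.6% of Rps27l occur in no other annotated gene. The same share is 41.4% in Rpl22l1 and 98.6% in Rpl22, and 15.4% in Rpl36a and 76.7% in Rpl36al. For Rps4x it is 47.1%, and for the pseudogene Rps4l it was not measured.

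Rpl7l1, a paralog of Rpl7, had 23.98% ± 0.631 of the pair's counts in intact proliferating and 20.9% ± 0.650 in intact differentiating cells (SD, n = 4), and its log2 ratio differed without overlap in both genotypes, by -0.26 in intact and -0.35 in null cells (exact permutation p = 0.0286, adjusted p = 0.0816). For Rpl36al over Rpl36a the ratio overlapped between all groups compared, with means from 2.41 in intact proliferating to 2.94 in null proliferating cells. The log2 ratio of Rps4l over Rps4x was -5.37, -6.19, -4.91 and -5.96 in intact and -6.61, -7.85, -7.43 and -6.66 in null differentiating libraries, without overlap (exact permutation p = 0.0286, adjusted p = 0.0816). While proliferating, this ratio was -5.85 ± 0.581 in intact and -6.68 ± 0.475 in null cells (SD, n = 4), with overlap (exact permutation p = 0.0571, adjusted p = 0.143).

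**Figure D3:**
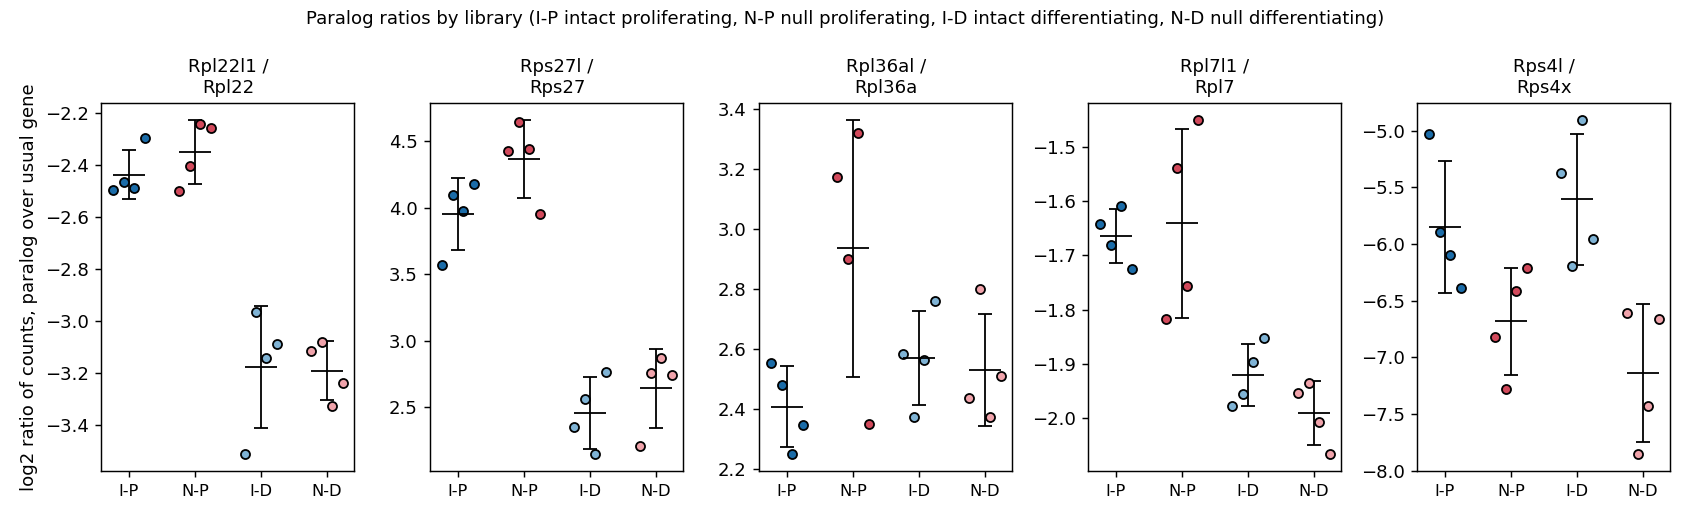
Log2 ratio of the counts of each paralog over its usual gene (vertical axis, a scale per panel) by group; points are libraries in replicate order, the wide line is the mean and the error bar the SD of 4 libraries. Rpl22l1 and Rps27l lie lower in differentiating than in proliferating cells of both genotypes, and Rps4l lies lower in null than in intact differentiating cells.

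Compared per kilobase of gene model, the members spanned a wide range. In intact proliferating cells the 4 highest means were those of Rplp1 (1091 ± 193), Rpl8 (1053 ± 116), Rps9 (1041 ± 102) and Rpl41 (983 ± 156 CPM per kilobase, SD, n = 4), and the median member had 125. The lowest were Rps27 (18.3 ± 0.693), Rps13 (13.9 ± 1.29) and Rps4l (8.39 ± 2.71). The ranges of neighbours in this order overlapped for 81 of 83 pairs in intact proliferating, 82 in null proliferating, 74 in null differentiating and 82 in intact differentiating cells, so the exact order is not resolved. Rplp1 and Rpl8 were among the 3 highest in every group, and Rps13 and Rps4l were the 2 lowest in every group.

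Ribosomal protein genes have many processed pseudogenes, and the members differed in how much of their sequence is their own. In the GENCODE M21 transcripts, 81 members had an annotated transcript, and a median of 58.7% of the 75-base stretches of its longest transcript occurred in no other gene, from 7.51% in Rpl5 to 100% in Rps3. A stretch was shared with at least 1 pseudogene in 78 of the 81, and with as many as 64 in Rpl7a. The sources used here do not say how reads that match several places were counted. Across the 81 genes, the unique share and the log2 CPM per kilobase in intact proliferating cells had a Pearson r of 0.378 and a Spearman rho of 0.386, given as a description of genes in the same libraries. On differentiation of intact cells, 25 of 25 members under 40% unique were lower (median -0.87), 27 of 27 between 40% and 70% (median -0.84) and 27 of 29 over 70% (median -0.73). In the interaction, the medians were 0.31, 0.30 and 0.17 in the same order, with 2, 2 and 0 called higher. The part of shared sequence in the levels was not tested.

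**Figure D4:**
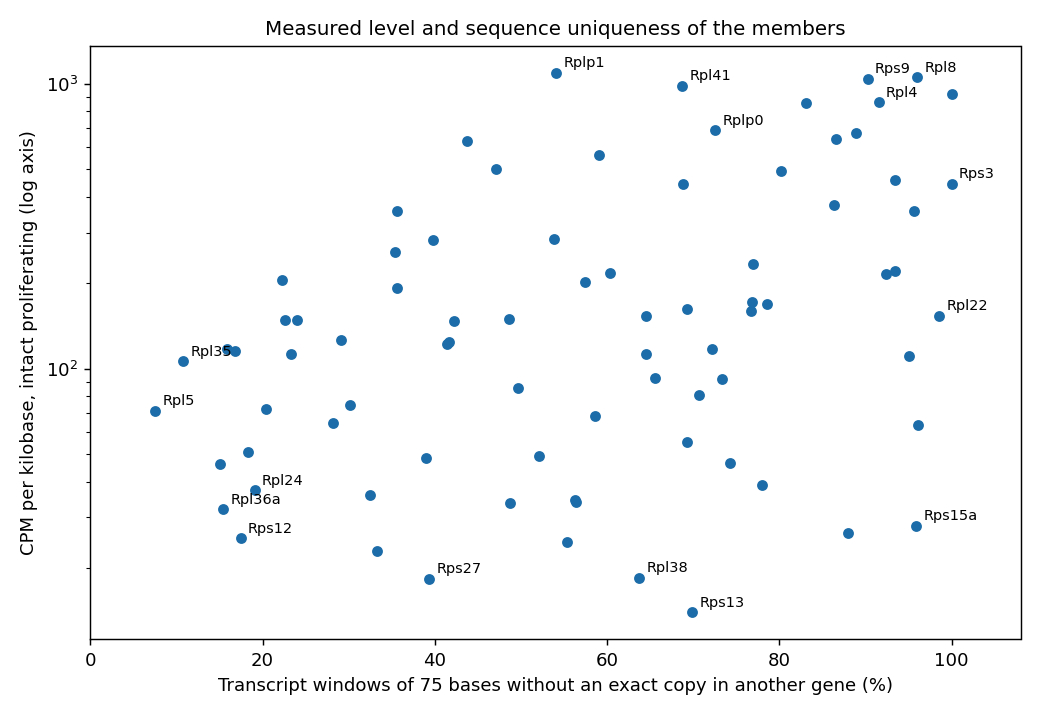
Mean level in intact proliferating cells (CPM per kilobase, vertical log axis) against the percent of 75-base transcript stretches found in no other gene (horizontal axis), 1 point per member with an annotated transcript. Levels are spread widely at every degree of uniqueness, with Rpl5 at 7.51% and Rps3 at 100%.

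Members with and without a run of at least 8 C or T letters near the annotated start were counted apart. The run did not have to begin with a C at the start, so it need not be a TOP tract. Members without it may still have a shorter tract. On differentiation of intact cells, 41 of 43 members with such a run were lower (median -0.84), and 19 of 19 without it (median -0.74). In null against intact proliferating cells, 15 of 43 with such a run and 6 of 19 without it were lower, with medians of -0.25 and -0.26.

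Other genes of the pathway were read from lists chosen with earlier results of these data known. Their counts are read beside the shares of all genes tested that rose and fell on differentiation (36.7% and 35.3% in intact, 34.6% and 34.4% in null cells) and that were higher and lower in null cells (19.0% and 19.7% while proliferating, 24.3% and 22.0% while differentiating). Of 36 ribosome biogenesis factors, which process ribosomal RNA and assemble the subunits, 34 fell on differentiation in intact cells (94.4%) and 33 in null cells (91.7%), with medians of -0.73 and -0.72. Fbl, which methylates ribosomal RNA, changed by -1.17 (SE 0.11) in intact and -0.95 (SE 0.11) in null cells. In null against intact cells 1 was higher (2.78%) and 4 lower (11.1%) while proliferating, and 3 were higher (8.33%) and 7 lower (19.4%) while differentiating, all below the shares over all genes. Bysl, needed for the small subunit, was lower in null differentiating cells (log2 fold change -0.50, SE 0.09, edgeR adjusted p = 0.00027).

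The 78 mitochondrial ribosomal protein genes serve the separate ribosome of the mitochondrion. On differentiation 71 (91.0%) fell in intact and 71 in null cells, beside 35.3% and 34.4% of all genes, with medians of -0.56 and -0.62. Between genotypes, 19 were higher and 3 lower in null proliferating cells, beside 19.0% and 19.7% of all genes, and 19 higher and 5 lower in null differentiating cells, beside 24.3% and 22.0%. Mrps6 was higher in null cells in both conditions, by 1.22 (SE 0.14) while proliferating and 1.34 (SE 0.14) while differentiating on the log2 scale. Their share of counts was 0.353% ± 0.0128 in intact and 0.374% ± 0.00572 in null proliferating cells (SD, n = 4), without overlap and in the opposite direction to the cytoplasmic share. The difference between the cytoplasmic and mitochondrial genes was not tested.

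Of 21 translation factors and other genes whose messages carry TOP tracts, 19 fell (90.5%) and 1 rose on differentiation in intact cells, and 14 fell (66.7%) and 1 rose in null cells. The exception was Eif4a2, a helicase of translation initiation. While proliferating, 8 of the 21 were lower in null cells (38.1%, beside 19.7% of all genes) and 0 higher, with Rack1, which sits on the small subunit, at -0.44 (SE 0.10, edgeR adjusted p = 0.0028) and the initiation factor Eif4b at -0.31 (SE 0.06, edgeR adjusted p = 0.0016). While differentiating, 3 were higher (14.3%, beside 24.3%) and 1 lower (4.76%, beside 22.0%), and Eif4b was among the higher ones (0.19, SE 0.06, edgeR adjusted p = 0.021). Eif4b, Eif3k and Eif3h were higher in the interaction (14.3%, beside 12.7% of all genes). Of 10 host genes of small nucleolar RNAs, which also have TOP tracts, 6 were lower (60.0%, beside 19.7% of all genes) and 0 higher in null proliferating cells, and 3 were lower (30%, beside 22.0%) and 0 higher in null differentiating cells. Among those lower while proliferating were Gas5 (-0.46, SE 0.11, edgeR adjusted p = 0.0032) and Zfas1 (-0.52, SE 0.11, edgeR adjusted p = 0.0022).

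Of 12 tested genes of RNA polymerase I, which transcribes ribosomal RNA, 2 were higher (16.7%) and 3 lower (25%) in null proliferating cells, near the 19.0% and 19.7% of all genes, and 2 were higher and 2 lower in null differentiating cells, with Ubtf at 0.34 (SE 0.07) and Polr1b at -0.35 (SE 0.10) while proliferating. Of 22 regulators around mTOR and MYC, 6 were higher (27.3%, beside 19.0% of all genes) and 1 lower (4.55%, beside 19.7%) in null proliferating cells. In null differentiating cells 10 were higher (45.5%, beside 24.3%) and 3 lower (13.6%, beside 22.0%). The 1 lower while proliferating was Myc, an activator of ribosome genes, which had 182 ± 36.5 CPM in intact and 114 ± 8.06 CPM in null proliferating cells (SD, n = 4, log2 fold change -0.67, SE 0.14, edgeR adjusted p = 0.0017). The 6 higher while proliferating included Tsc2, an inhibitor of mTOR signalling (0.42, SE 0.06), Rheb (0.41, SE 0.07) and Mxd1 (0.37, SE 0.14) on the log2 scale. Rptor (0.28, SE 0.06), Akt1s1 (0.20, SE 0.06) and Mlst8 (0.18, SE 0.07) were the others. How these regulators relate to the ribosomal protein genes was not tested. Of 12 genes of the ribosome stress and p53 response, which is also the pathway known for Rps27l, 11 fell (91.7%, beside 35.3% of all genes) and 1 rose on differentiation in intact cells, and 9 fell (75.0%, beside 34.4%) and 2 rose in null cells. Between genotypes, 2 were higher and 3 lower while proliferating, and 5 were higher (41.7%, beside 24.3%) and 0 lower while differentiating. In the interaction 6 were higher (50%, beside 12.7%) and 0 lower. Cdkn1a, the cell cycle inhibitor induced by p53, changed by -5.07 (SE 0.35) in intact and -3.15 (SE 0.31) in null cells, with an interaction of 1.92 (SE 0.42, edgeR adjusted p = 0.0048). Rps27l had an interaction of 0.28 (SE 0.20, edgeR adjusted p = 0.34).

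Markers of cell types moved with the same groups. Of 9 neural stem cell markers, all were detected, and their summed level was 7433 to 8033 CPM in intact proliferating, 7842 to 8105 in null proliferating, 3367 to 4403 in intact differentiating and 5173 to 6714 in null differentiating libraries. A sum can hide markers that go the other way. On differentiation of null cells 5 of the 9 were called higher and 4 lower, and of intact cells 2 higher and 4 lower. The 8 neuron markers summed to 1003 to 1102 CPM in intact proliferating, 1048 to 1274 in null proliferating, 2169 to 5894 in intact differentiating and 2277 to 2692 in null differentiating libraries. Gene by gene, 3 of the 8 were lower and 0 higher in null proliferating cells (beside 19.7% and 19.0% of all genes). In null differentiating cells 4 were lower (50%, beside 22.0%) and 1 higher (12.5%, beside 24.3%). The 7 oligodendrocyte lineage markers summed to 1931 to 2387, 1058 to 1415, 3268 to 6362 and 1398 to 1692 CPM in the same order, and the 7 astrocyte markers to 388 to 782, 1182 to 1890, 893 to 1588 and 3761 to 6148 CPM. On differentiation 5 oligodendrocyte lineage markers were called higher and 2 lower in intact cells, and 5 higher and 0 lower in null cells. Astrocyte markers gave 6 higher and 0 lower in each genotype (all genes higher: 36.7% intact, 34.6% null). In null cells 6 oligodendrocyte lineage markers were lower while proliferating and 5 while differentiating, and 0 higher (all genes lower: 19.7% and 22.0%). For astrocyte markers 3 and 5 were higher and 0 lower (all genes higher: 19.0% and 24.3%). Of 6 microglia markers, Aif1, Cx3cr1, C1qa and Ptprc were at 0 in all proliferating libraries, and the list summed to at most 0.630 CPM in any library. The 7 endothelial and mural markers summed to 4.01 to 7.03 CPM in intact proliferating, 35.6 to 125 in null proliferating, 29.2 to 37.0 in intact differentiating and 16.3 to 23.2 in null differentiating libraries. Of the 5 tested, only Acta2 was called between proliferating genotypes, higher in null cells by 4.25 (SE 0.48) on the log2 scale. The 5 fibroblast and meningeal markers reached 157 CPM in 1 intact differentiating library and at most 10.5 CPM in the other groups, and erythroid markers at most 1.19 CPM. The part of these cell types in the ribosomal protein results was not tested.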

How the data were processed

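Polyadenylated RNA of 16 libraries in 4 groups was read as pairs of 75 bases, per the labels' protocols. The authors deposited raw counts per gene, 1 library per file, with gene model lengths per the file headers. The submitters' processing notes name bcl2fastq, featureCounts and mm10, and the sources used here give no versions, aligner, strandedness or treatment of reads with several matches. Symbols were matched for 25275 of 27179 genes with the RefSeq table of GRCm38.p6.

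Genes were kept by filterByExpr (minimum count 10), which left 15177 genes and all 84 members. Libraries were scaled by TMM and tested in edgeR 4.0.16 (R 4.3.3) with the quasi-likelihood test over all 16 libraries, 1 mean per group, and Benjamini-Hochberg adjusted p under 0.05. The SE is the log2 fold change divided by the root of F. DESeq2 1.42.0, other scalings and filters, a 1.5-fold test, blocks by replicate number, and leaving out libraries were alternatives. Paralog ratios were tested by exact permutation (scipy 1.17.1).

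The members, lists and tests were chosen with earlier results of these data known. Named genes were Kat7, members of paralog pairs, the 4 highest and 4 lowest fold changes among called members of each comparison, the 5 highest and 3 lowest members per kilobase in each group, the stalk and exit tunnel members, Rpl5 and Rpl11, up to 4 called genes with the lowest adjusted p in a genotype comparison from each pathway list, and any member at the end of a described range. Other named genes, and the members whose promoters are printed, were chosen after their values were seen. Some genes that the rule would name are not reported here. The design gives isolates of 4 foetuses per genotype and condition. Whether a replicate number links proliferating and differentiating libraries of 1 foetus is not given. The main test treated the 16 libraries as independent, and p-values measure the spread between these libraries.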

Additional observations from a re-analysis of the deposited data

Results flagged for a closer look

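In each group of 4 libraries, shares, levels and ratios were searched for a library whose gap to its nearest neighbour took more of the group's range than Dixon's 95% critical value for 4 samples. Of 132 groups of values, 10 had such a library. The nominal rate of 1 in 20 is for independent values. These groups come from the same libraries and share genes, so the 10 cannot be set against that rate. Intact replicate 1 accounted for 4 of them. In intact proliferating cells its share of counts for ribosome biogenesis factors was 0.366% (the others 0.453% to 0.459%) and its Rpl7l1 level was 139 CPM (others 174 to 175). In intact differentiating cells its Rplp0 level was 499 CPM (others 588 to 604) and its Rpl13a level was 304 CPM (others 395 to 404).

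The other 6 were spread over libraries. Null proliferating replicate 4 had the highest share of mitochondrial ribosomal protein counts, 0.383% (others 0.371% to 0.372%), and the lowest share of biogenesis factors, 0.339% (others 0.397% to 0.400%). Null proliferating replicate 1 had the highest Rpl13a level, 518 CPM (others 431 to 438), and null proliferating replicate 2 the highest Rpl7l1 level, 144 CPM (others 136 to 137). Intact proliferating replicate 4 had the highest log2 ratio of Rpl22l1 over Rpl22, -2.30 (others -2.50 to -2.46), and intact differentiating replicate 2 the highest Rpl17 level, 14.3 CPM (others 12.04 to 12.4).

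The interaction test called 4 of the 84 members higher (4.76%, beside 12.7% of all genes). They were Rps23 (0.66), Rpl30 (0.58), Rpl17 (0.53) and Rps27a (0.48 on the log2 scale, null minus intact). With DESeq2's size factors in edgeR 0 were called.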

How the results depend on the processing

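The lower count of members on differentiation kept its size in intact cells (80 to 82 lower when single libraries were left out) and in null cells (62 to 76), except against a minimum change of 1.5-fold, which called 48 and 12. Of the fits with another scaling, DESeq2's moved the median of all genes in the intact response from 0.02 to 0.12, and the members' median from -0.80 to -0.75. In null against intact proliferating cells 30 called members became 50 with library size scaling (where all genes split into 2234 higher and 3847 lower, against 2879 and 2985), 57 without intact replicate 1 of both conditions, 0 against 1.5-fold, and 18 to 50 without single libraries. In differentiating cells 10 became 1 against 1.5-fold, 22 without intact replicate 1 of both conditions, and 3 to 15 without single libraries. In the interaction 4 became 0 with DESeq2's size factors in edgeR, 0 with a minimum count of 50, 2 with library size scaling, 1 without a filter, 0 against 1.5-fold, 12 without intact replicate 1 of both conditions, and 0 to 16 without single libraries.

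With the replicate number as a block the interaction had 1 called member, and 7 with the replicate block within genotype; the other comparisons had 23 (proliferating), 8 (differentiating), 81 (intact response) and 73 (null response). The numbers were not taken to pair libraries, since the sources do not say whether they do. Residual correlations of libraries with the same number ran from -0.231 to 0.126. This range cannot decide the question, because no libraries of different numbers were set beside it. The log2 ratio of the share stayed between -0.38 and -0.27 (null against intact, proliferating), -0.25 and -0.14 (differentiating), -0.71 and -0.58 (intact response) and -0.53 and -0.47 (null response) without single libraries. Over the alternatives other than single libraries, 105 combinations of gene and comparison, from 40 genes, were recomputed. These do not cover every comparison of every named member. Among them no fold change changed sign, 995 recomputed values kept their call and 130 lost it. Paralog tests cannot reach 0.05 without 1 library (smallest p 0.0571) or as sign flips of numbered pairs (smallest p 0.125).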
